A study of Mus musculus with 11 samples.

Results

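The 86 protein-coding genes named for the proteins of the cytosolic ribosome were examined in a list of 94963 accessible chromatin regions from the mouse MPC2 cell line. Genes were taken by symbol from the GENCODE vM21 annotation (Rpl or Rps followed by a number, Rpsa, Rplp0, Rplp1 and Rplp2; symbols with a hyphen and the Rps6k kinases were left out), and a region belonged to a gene when it lay within 1000 bp of one of its annotated transcript starts. Of the 86 genes, 81 had such a region (94.2%), against 64.1% of all 21938 protein-coding genes, and together they held 92 regions. The rule takes 77 core symbols (46 of the large and 31 of the small subunit) and 9 like-named symbols, of which 8 are paralogues and Rps19bp1 is a protein that binds Rps19 and is not itself part of the ribosome.

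The assay was ATAC-seq: Tn5, a transposase loaded with sequencing adapters, cuts where chromatin is open, and the cuts are counted. MPC2 is 1 clone of conditionally immortalised mesenchymal progenitor cells, which divide at a lower and differentiate at a higher culture temperature. The 11 libraries came from undifferentiated cells given vehicle (DMSO, 3 libraries) or 50 uM FG-4592 (Roxadustat, a HIF-PHI, which stabilises hypoxia-inducible factors, 3 libraries) for 48 h, and from cells kept in osteogenic medium for 3 weeks to form osteocytes and then given vehicle (2 libraries) or 50 uM FG-4592 (3 libraries) for 48 h. The study compared FG-4592 with vehicle in each cell type. The list held 1 level for each region over all libraries, read here as the average log2 CPM (cuts in the region scaled to a common library size), so no level of a single library, no difference between groups and no replicate error could be computed from it. Depth per library was unknown for the same reason, and every value below is a description of the pooled list, with no test.

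The cytosolic ribosome joins a small subunit, which decodes the mRNA, to a large subunit, which forms the peptide bond, and its proteins are made in near-equal amounts in almost every cell. Their genes are classic housekeeping genes with compact CpG-rich promoters, and many of their mRNAs begin with a C followed by an unbroken run of pyrimidines, the 5′ terminal oligopyrimidine (TOP) sequence through which mTOR controls their translation. In bone-forming cells, which export large amounts of collagen and other matrix proteins, ribosomes carry a heavy load.

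The sequences of transcript starts are given first because the starts of these genes differed from those of other genes in pyrimidine content. The windows below run from 15 bases before the start of the main GENCODE transcript through its first 15 bases, 5′ to 3′ on the coding strand, in GRCm38.p6. Capitals mark an uninterrupted run of at least 8 pyrimidines and the 7 bases CCGGAAG or their reverse complement CTTCCGG, the binding letters of ETS factors such as GABP. The 6 genes are those with the longest runs within this window and were picked after their values were seen.
Rps2 (chr17:24720095-24720124, plus strand): ccgcggcgCCTCCCTCTTCTTCTTCTTCgg
Rpl29 (chr9:106429524-106429553, plus strand): gggCCTTTCTCTTTCTCTTCCGGtctccgg
Rpl34 (chr3:130730323-130730352, minus strand): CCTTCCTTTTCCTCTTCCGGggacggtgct
Rpl32 (chr6:115808733-115808762, minus strand): gcgccgccgccgCCTCTTCCTTCTTCCTCg
Rps24 (chr14:24490703-24490732, plus strand): cggcagtgagcggTCCTCTTTTCCTCCTCT
Rpl22 (chr4:152325838-152325867, plus strand): gcgcctgcgtagtgcgCCCCCCTCCCTTTC

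Within the window the longest run measured 20 pyrimidines in Rps2, a small subunit protein at the mRNA entry site. Runs measured 18 in both Rpl29 and Rpl34 and 17 in both Rpl32 and Rps24. Those of Rpl34, Rps24 and Rpl22 reached an edge of the window and may continue beyond it. In Rpl29 and Rpl34 the run passed directly into the ETS letters. Rpl22 was 1 of 3 genes with a run of 14, together with Rpl4 and Rpl30. Levels of the regions of the 6 genes shown ran from 5.06 log2 CPM in Rpl29 to 5.72 in Rps2, and Rpl4 had 4.00 and Rpl30 5.73.

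Pyrimidine runs of at least 8 bases within this window were found in 28 of 77 core genes (36.4%), against 11.1% of the 13977 other protein-coding genes with a region and 11.6% of all protein-coding genes. The share was 43.5% (20 of 46) in the large and 25.8% (8 of 31) in the small subunit. A gap was also seen for runs of at least 10 (30.4% and 12.9%), but not for runs of at least 6 (45.7% and 45.2%). Runs of at least 8 were found in 9 of 78 (11.5%) mitochondrial ribosomal protein genes, whose products build the separate ribosome of the mitochondrion. In nuclear genes of oxidative phosphorylation (OXPHOS) they were found in 13 of 94 (13.8%). The OXPHOS list was taken by the start of the symbol, so it holds respiratory chain and ATP synthase subunits, 8 Ndufaf assembly factors of complex I and 2 annotated genes named Atp5o. The mitochondrial list is close to other genes on this measure, while the cytosolic list lies well above them.

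The choice of start and of run length set the size of the share, with core genes first in each case. For runs of at least 6 the shares were 45.5% of core genes, 35.1% of OXPHOS genes, 26.9% of mitochondrial ribosomal protein genes and 27.2% of other genes with a region. For runs of at least 10 they were 23.4%, 3.19%, 6.41% and 5.25% in the same order of lists, so the other lists changed places. Over all 86 genes the run was present in 29 (33.7%). With the RefSeq start, available for 66 of the 86, it was present in 25 (37.9%) against 11.5% of other genes. With a run counted at any annotated start of a protein-coding transcript, a setting chosen after the data were seen, it was present in 50 of 86 (58.1%) against 24.6%. Both sets of genes had a median of 2 starts each.

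A start that matched the TOP definition more closely, with C as the first base, a pyrimidine before it and 3 after it, was annotated in 11 core genes (14.3%) and in 2.30% of other genes with a region. The first base was C in 31.2% of core genes and 17.2% of others, and G, which is not a TOP start, in 39.0% and 45.2%. The base just before the start was C or T in 80.5% of core genes and in 67.8% of others. Regions of the 11 genes had a median of 5.72 log2 CPM (4.00 to 6.15), against 5.11 (3.90 to 7.13) for the 65 without this start. The broader run of at least 8 went with no such gap, with 5.15 in 28 genes and 5.11 in 48 without it.

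**Figure D1:**
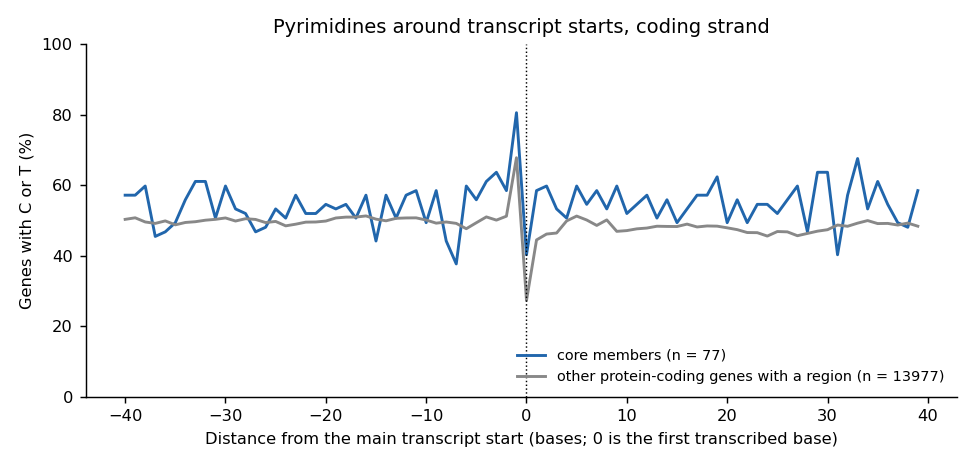
Share of genes (%) with C or T at each base around the main transcript start, for 77 core ribosomal protein genes (blue) and 13977 other protein-coding genes with a region (grey). At the base just before the start the blue line reaches 80.5% and the grey line 67.8%, and the blue line lies above the grey line at most positions after the start.

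Promoter sequences are shown for the 5 genes with the highest and the 5 with the lowest level among those whose region covered the main start, so that the ends of the range can be read against their letters. Rps25, the only core gene without a region, follows them. Each window holds 80 bases before the start and the first 20 after it, 5′ to 3′ on the coding strand in GRCm38.p6, with the same capitals as above (runs are marked only within 15 bases of the start). The order is from the highest level, Rpl7, to the lowest, Rpl39l, and then Rps25.
Rpl7 (chr1:16104643-16104742, minus strand): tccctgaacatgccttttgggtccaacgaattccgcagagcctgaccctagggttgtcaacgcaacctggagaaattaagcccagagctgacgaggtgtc
Rps19 (chr7:24884291-24884390, plus strand): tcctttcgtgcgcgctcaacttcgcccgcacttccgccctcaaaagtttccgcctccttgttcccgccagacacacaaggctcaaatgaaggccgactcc
Rps21 (chr2:180257297-180257396, plus strand): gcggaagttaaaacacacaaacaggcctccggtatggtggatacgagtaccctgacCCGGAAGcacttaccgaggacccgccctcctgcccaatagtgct
Rpl41 (chr10:128549286-128549385, minus strand): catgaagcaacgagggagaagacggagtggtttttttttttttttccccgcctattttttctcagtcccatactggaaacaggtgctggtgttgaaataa
Rpl36al (chr12:69184064-69184163, minus strand): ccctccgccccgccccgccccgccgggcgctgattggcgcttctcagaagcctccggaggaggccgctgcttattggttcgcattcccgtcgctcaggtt
Rps27 (chr3:90213632-90213731, minus strand): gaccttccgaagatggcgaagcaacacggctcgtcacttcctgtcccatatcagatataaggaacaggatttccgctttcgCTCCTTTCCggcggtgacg
Rpl6 (chr5:121204401-121204500, plus strand): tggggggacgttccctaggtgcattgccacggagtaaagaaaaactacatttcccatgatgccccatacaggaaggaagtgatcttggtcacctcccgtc
Rpl4 (chr9:64173295-64173394, plus strand): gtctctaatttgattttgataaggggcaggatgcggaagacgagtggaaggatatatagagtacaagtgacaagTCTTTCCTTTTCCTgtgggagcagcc
Rps4x (chrX:102189375-102189474, minus strand): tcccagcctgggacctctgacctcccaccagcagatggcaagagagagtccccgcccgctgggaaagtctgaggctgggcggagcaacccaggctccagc
Rpl39l (chr16:10170148-10170247, plus strand): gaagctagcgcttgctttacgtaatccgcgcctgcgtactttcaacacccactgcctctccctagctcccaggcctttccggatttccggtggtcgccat
Rps25 (chr9:44407059-44407158, plus strand): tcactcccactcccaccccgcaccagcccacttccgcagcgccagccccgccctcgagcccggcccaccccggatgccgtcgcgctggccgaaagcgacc

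None of the motifs searched was held by all 5 genes of either end. In the longer window of 250 bases before to 50 after the start, Rps21 held the ETS letters at 2 places, and so did Rpl39l, at the other end of the range, while Rpl6 held them once. Sp1 letters (GGGCGG) were found in Rps19, Rps21 and Rpl36al, and also in Rps4x. Pyrimidine runs of at least 8 stood at the starts of Rps27 and Rpl4, both among the lowest, and at none of the 5 highest.

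A region over one of their own transcript starts was found for 81 of the 86 genes (94.2%), against 58.3% of all protein-coding genes, and in 79 of the 81 it covered the start of the main transcript. Among core symbols 76 of 77 had a region (98.7%), with 46 of 46 in the large and 30 of 31 in the small subunit. Mitochondrial ribosomal protein genes reached the same share (77 of 78, 98.7%) and OXPHOS genes 84 of 94 (89.4%). The OXPHOS list kept like-named forms such as Cox4i2, Cox6b2 and Cox8c, which had no region. Its share is therefore nearer in kind to the 94.2% of all 86 genes than to that of core symbols. Of 30 ribosome biogenesis genes, which make and process rRNA or assemble subunits, 30 had a region. The 2 genes whose ranked region missed the main start were Rpl35, whose region began 69 bp from it, and Rpl18, whose higher region lay at the divergent start of Sphk2.

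The 5 genes without a region were Rps25, Rpl3l, Rpl10l, Rps27rt and Rps19bp1. Rpl3l is the heart and skeletal muscle form of Rpl3, Rpl10l is a testis-expressed intronless copy of Rpl10, and Rps27rt is a retrogene of Rps27. For Rpl10l the nearest region of the list lay 107728 bp away, for Rps19bp1 13443 bp, for Rps27rt 3514 bp and for Rpl3l 3132 bp. Rps25, a small subunit protein needed for initiation at some viral internal ribosome entry sites, was the exception among core genes, with its nearest region 10499 bp away.

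The Rps25 promoter was CpG-rich and held neither the ETS letters nor a pyrimidine run of at least 8. The window of 250 bases before to 50 after its start held 63.3% G and C with a CpG observed to expected ratio of 0.82, against a median of 56.0% (upper quartile 59.3%) and 0.86 in core genes, and it contained Sp1 letters and the core letters of the hypoxia response element (HRE), GGGCGG and ACGTG. Every word of 50 bases within 500 bp of its start occurred once in the genome, as in 34 of the 77 core genes. Why the list has no region there was not tested.

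Regions of the 81 genes had a median level of 5.14 log2 CPM (quartiles 4.89 and 5.59, range 0.84 to 7.13), close to the 5.03 of the 13977 other protein-coding genes with a region. Their spread was smaller than that of other genes. The distance between quartiles was 0.70 log2 units for ribosomal protein genes and 1.92 for other genes (3.83 to 5.75). Levels between 4 and 6 log2 CPM were held by 68 of the 81 (84.0%) and by 55.7% of other genes, and levels below 4 by 2 (2.47%) and 27.2%.

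Within the whole list 64 of the 86 genes (74.4%) had a region among the highest 10% by level, which begins at 4.80 log2 CPM, against 36.6% of all protein-coding genes. Their 92 regions made up 0.0969% of the list and 0.347% of its summed CPM. The median level over all 94963 regions was 2.12. Ribosomal protein promoters were thus well above the typical region of the list and about level with the typical promoter.

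Both subunits had nearly the same level. The median was 5.09 log2 CPM over 46 large subunit genes (4.00 to 7.13) and 5.15 over 30 small subunit genes (3.90 to 6.59). Mitochondrial ribosomal protein genes had a median of 4.83 with quartiles 1.37 apart, and OXPHOS genes 5.19 with quartiles 0.85 apart. Ribosome biogenesis genes lay at 5.28 with quartiles 0.84 apart, and levels between 4 and 6 were held by 86.7% of them and 82.1% of OXPHOS genes, close to the ribosomal protein genes. Between 4 and 6 lay 71.4% of mitochondrial ribosomal protein genes. The 17 translation factor and other TOP genes with a region had a median of 5.66 with quartiles 1.39 apart and 58.8% between 4 and 6, nearer to other genes. Of 18 such genes in all, Eef2, the elongation factor that moves the ribosome along the mRNA, was the only one without a region.

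Levels were also set beside CpG-rich promoters, here at least 55% G and C and a CpG observed to expected ratio of at least 0.6 over 500 bp to each side of the start. Of the 77 core genes 59 met this (76.6%), against 57.0% of other genes with a region. Against the CpG-rich promoters of other genes the order turned, with a median of 5.22 log2 CPM in 58 core genes and 5.40 in 7963 others. Their quartiles were 0.78 apart in core genes and 1.30 in others. Levels above 6 were held by 9 of the 58 (15.5%) and by 24.6% of the others, and levels below 4 by 0 of 58 and 14.4%, so the core genes were fewer at both ends. The same held for 54 CpG-rich OXPHOS genes, with quartiles 0.66 apart, 11.1% above 6 and 1.85% below 4. In 41 CpG-rich mitochondrial ribosomal protein genes the quartiles were 1.13 apart, with 22.0% above 6 and 2.44% below 4. The 18 core genes that were not CpG-rich all had a region, with a median of 4.91, whereas 45.7% of such promoters of other genes had one, with a median of 4.28.

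**Figure D2:**
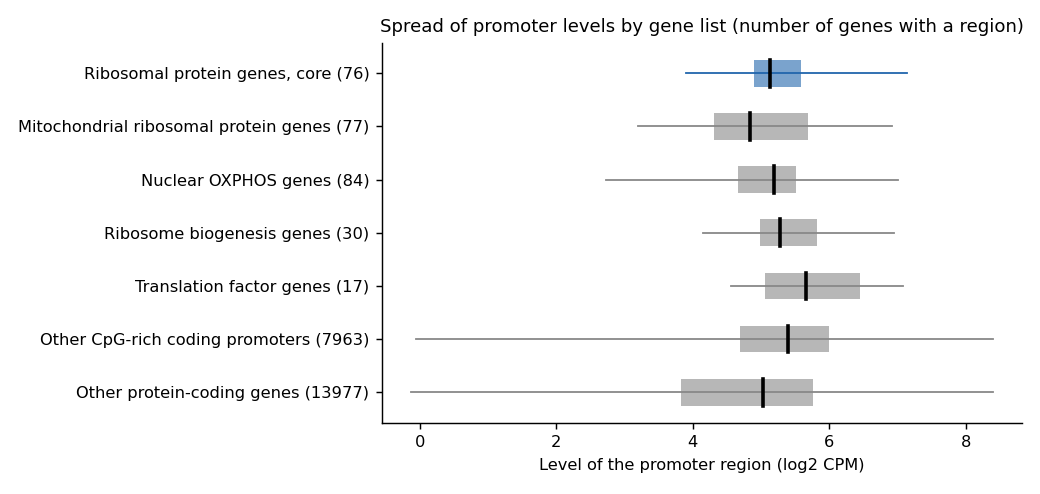
Level of the promoter region (log2 CPM) by gene list, with the number of genes that have a region in brackets; thin lines run from the lowest to the highest gene, boxes between quartiles, and black marks are medians. The box of the core ribosomal protein genes is 0.70 wide, against 1.92 for other protein-coding genes.

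The highest level belonged to Rpl7, a large subunit protein, at 7.13 log2 CPM over 2220 bp (chr1:16104071-16106290), a region it shared with Rdh10, a retinol dehydrogenase. Rps19, the gene most often mutated in Diamond-Blackfan anaemia, followed at 6.59 and Rps21 at 6.49, both in regions with no other coding start. Rpl41, the shortest ribosomal protein, had 6.45 in the widest region of the set, 2552 bp, shared with Zc3h10. The rest of the 8 highest were Rpl36al (6.34, shared with Mgat2), Rpl15 (6.21, shared with Nkiras1), Rpl37 (6.15) and Rps29 (6.08). Of these 8, Rpl7, Rpl41, Rpl36al and Rpl15 shared their region with another coding gene.

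At the low end stood Rpl39l, the testis-enriched paralogue of Rpl39, at 0.84 log2 CPM over 272 bp (chr16:10170116-10170387). Among core genes the lowest was Rps4x, the X-linked form of a small subunit protein, at 3.90 (chrX:102188805-102189798). Rpl4 had 4.00 in a region shared with Zwilch, Rpl6 4.26 and Rps27 4.32 in a region shared with Rab13. Rps28 (4.45, shared with Ndufa7) and Rpl9 (4.50, shared with Lias) were also among the 8 lowest. A shared region was therefore found at both ends of the range.

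**Figure D3:**
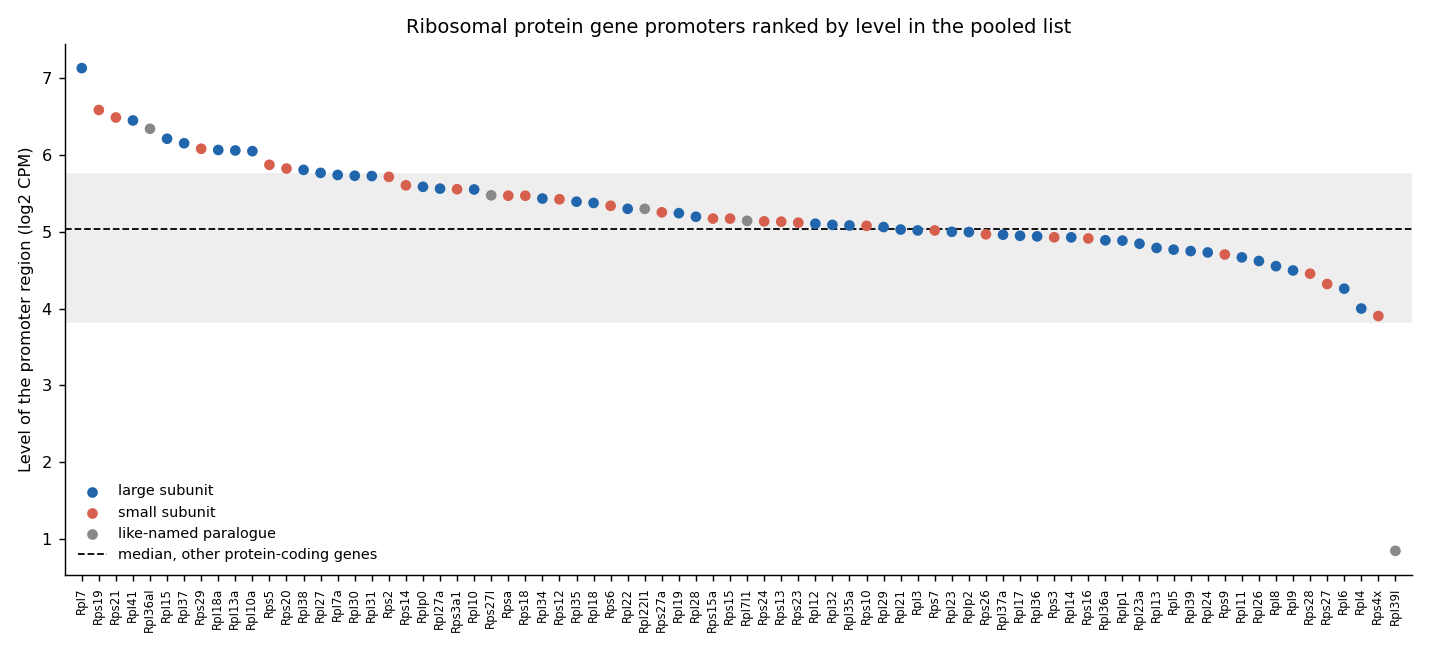
Level (log2 CPM) of the highest region within 1000 bp of a transcript start for 78 of the 81 ribosomal protein genes with a region, ranked, with the median (dashed) and quartiles (grey band) of other protein-coding genes. Apart from Rpl39l at 0.84, the points form a shallow slope from 7.13 to 3.90.

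Of the 81 genes, those of the ribosomal stalk and the laminin receptor were unremarkable in level. Rplp0, the base of the stalk that recruits translational GTPases, had 5.59 log2 CPM, and Rplp1 and Rplp2, which form its dimers, 4.89 and 5.00. Rpsa, a small subunit protein also described as a laminin receptor, had 5.47. Another 2 genes for proteins of the ribosome carry other symbols and lie outside the rule. Fau, a ubiquitin-like fusion to a ribosomal protein, had 5.05, and Rack1, a signalling scaffold on the small subunit, 5.52.

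Levels are given for 8 genes mutated in Diamond-Blackfan anaemia, a failure of red cell production, a partial list since other members are also mutated in it. Rps19 was the highest of them at 6.59 log2 CPM. Rps24 had 5.14, Rpl35a 5.08, Rps10 5.08, Rps7 5.02 and Rps26 4.97. Rpl5 and Rpl11, which form a particle with an rRNA and can bind Mdm2, the ligase that restrains p53, had 4.77 and 4.67.

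Of the 5 like-named paralogues with a region, 2 lay above their parents in level, 2 below and 1 at the same level. Rpl36al had 6.34 log2 CPM and its parent Rpl36a 4.89. Rps27l, a p53-responsive paralogue, had 5.48 and Rps27 4.32. In the opposite direction, Rpl7l1 had 5.14 and Rpl7 7.13, and Rpl39l 0.84 and Rpl39 4.75. Rpl22l1 and Rpl22, which can replace one another in the large subunit, both had 5.30. The parents of the 3 paralogues without a region had 5.02 (Rpl3), 5.55 (Rpl10) and 4.32 (Rps27).

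Widths of the regions were also close together. The median was 1170 bp (quartiles 1062 and 1328), against 1133 bp (847 and 1407) for other genes, and 67 of 81 (82.7%) were at least 1000 bp wide, against 63.3%. A level counts cuts over the whole region, and wider regions had higher levels. Across 13977 other genes level and log2 width had Pearson's r = 0.863 and Spearman's rho = 0.746, and across the 76 core genes r = 0.501 and rho = 0.420. All points of each correlation share the same pooled libraries.

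Within 20 bins of region width the 81 genes had a median of 0.13 log2 units above the bin's median, against 0.04 for other genes, and 47 of 81 (58.0%) lay above it, against 52.3%. The largest deficit was that of Rpl4, whose 1346 bp held 4.00 log2 CPM, 1.39 below its bin (-1.39).

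Most regions reached further into the gene than ahead of it. For the 79 genes whose region covered the main start, the median reach was 524 bp upstream and 659 bp downstream, against 479 bp and 649 bp in other genes. The upstream arm was the longer in 31 of 79 (39.2%), against 35.7%. Rpl41 reached 2316 bp into and past its short gene, and Rpl7 1628 bp upstream. Rpl10 leaned upstream, with 1091 bp ahead of the start and 147 bp after it.

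**Figure D4:**
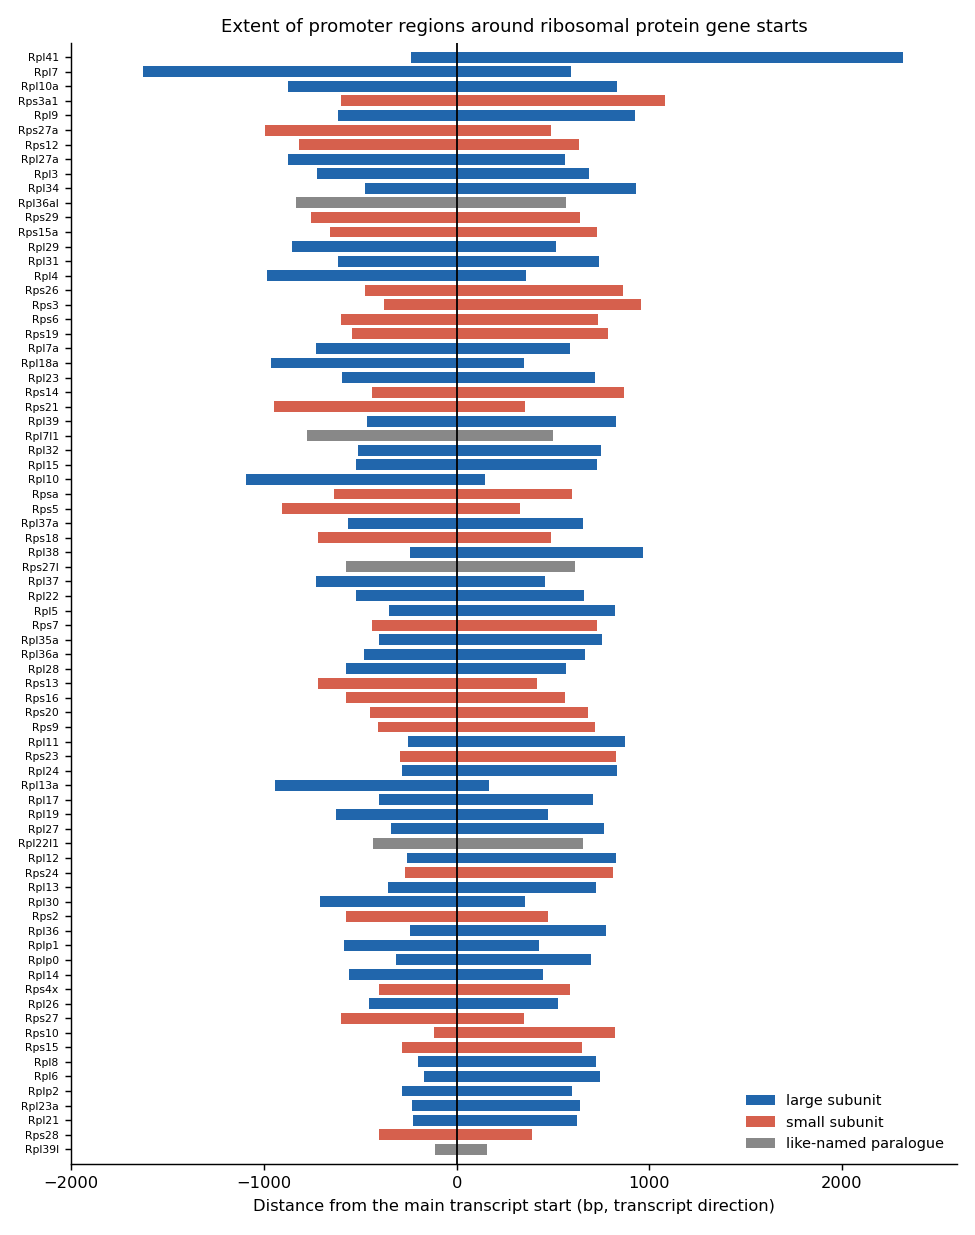
Reach of the promoter region (bp, in the direction of transcription) around the main transcript start at 0 for 76 of the 79 ribosomal protein genes whose region covers it, ordered by width. Most bars span both sides of the start, and Rpl41 and Rpl7 extend furthest, on opposite sides.

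More than 1 region near an annotated start was found for 8 genes, and in all of them but Rpl18 the region over the main start was the highest. Rpl3 had 5.02 log2 CPM at its main start and 2.52 and 1.24 near an upstream start. Rps24 had 5.14 and, at an upstream start, 3.30. Rpl10 had 5.55 and 2.52, Rps10 5.08 and 2.42, and Rpl27a 5.56 and 1.17. For Rps18 the regions were nearly equal, at 5.47 and 5.40, and for Rpl18 the region over its own main start had 4.80 and that at Sphk2 5.38. Rps14, the gene lost in a human myelodysplastic syndrome, had 5.61 at its main start and 2.99 and 3.07 at annotated starts far upstream, with a further region of 5.09 at 844 bp from such a start.

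Regions that also covered another coding gene's start belonged to 15 of the 76 core genes (share among other genes not computed). Their median was 5.25 log2 CPM (4.00 to 7.13), against 5.12 (3.90 to 6.59) for 61 that were not shared, and a level there cannot be divided between the 2 genes. Beside those already named they were Rpl7a (5.74, with Med22, a Mediator subunit), Rpl35 (5.39, with Arpc5l), Rps27a (5.25, with Clhc1), Rpl12 (5.11, with Lrsam1), Rpl35a (5.08, with Iqcg), Rps18 (with Vps52), Rpl18 (with Sphk2) and Rps10, which shared its start with an annotated readthrough transcript. For 30 core genes that host a small nucleolar RNA in an intron the median was 5.06, against 5.17 for 46 that do not. For 6 core genes whose nearest divergent start within 1000 bp was that of a noncoding gene, it was 5.64 (5.13 to 6.08). It was 5.11 for 11 whose nearest divergent start was coding and 5.08 for 59 with no divergent start. The regions of the 6 were also wider (median 1402 bp, against 1140 bp with no divergent start). Within bins of width the 3 medians were 0.19, 0.06 and 0.13 log2 units above the bin. The 4 X-linked genes (Rpl10, Rpl36a, Rpl39 and Rps4x) had a median of 4.82, beside 5.13 over all 76 core genes.

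Other letters were searched in the window of 250 bases before to 50 after the main start, on both strands. ETS letters (CCGGAAG) were present in 27 of 77 core genes (35.1%), against 15.5% of other genes with a region and 11.2% of all, but also in 37.2% of mitochondrial ribosomal protein genes and 18.1% of OXPHOS genes. Their reverse complement holds pyrimidines, and in 3 of the 12 core genes with both features they overlapped the run. Regions with the ETS letters had a median of 5.43 log2 CPM (27 genes, 4.26 to 6.49), against 5.11 (49 genes, 3.90 to 7.13), so the groups overlapped over nearly the whole range.

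YY1 letters (AANATGGC) were present in 13.0% of core genes, 20.5% of mitochondrial ribosomal protein genes and 7.86% of other genes with a region. Sp1 letters (GGGCGG) were present in 51.9% against 61.1%, but the order turned in the window of 500 bases before to 100 after the start (71.4% against 68.8%). CCAAT letters were present in 29.9% against 37.2%. The E-box CACGTG, bound by Myc, was present in 13.0% and 9.47%, and with RefSeq starts the order turned here too (7.58% of 66 members against 9.85%). The core of the hypoxia response element (ACGTG or GCGTG, which also matches part of every CACGTG) was present in 66.2% of core genes and 60.1% of other genes with a region. Regions with the hypoxia letters had a median of 5.13 and those without of 5.10.

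AP-1 letters (TGACTCA) were present in 3.90% of core genes and 3.66% of others. The 4 letters TATA between 40 and 15 bases before the start were found in 6 core genes (7.79%). The share was 3.41% in other genes with a region and 6.40% in all protein-coding genes. TATAAA was found in Rps2 alone (1.30%), against 1.24% and 2.44% in the same 2 sets. In the same promoter window the median G and C content was 56.0%, against 60.3% in other genes with a region, and the median CpG observed to expected ratio was 0.86 against 0.73. OXPHOS genes (56.0% and 0.80) and mitochondrial ribosomal protein genes (57.5% and 0.82) had values near those of the core genes.

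**Figure D5:**
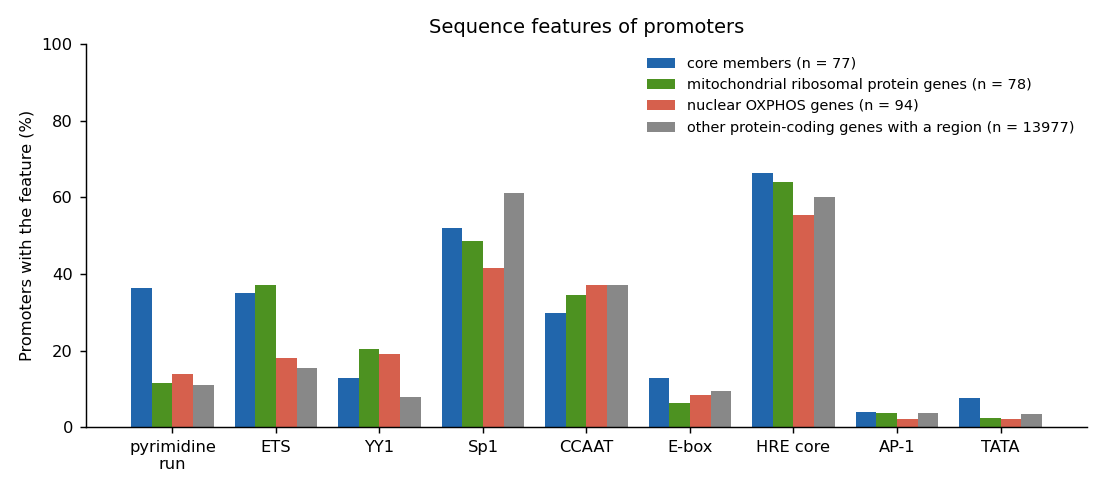
Share of promoters (%) with a pyrimidine run of at least 8 at the start or with a motif in the promoter window, for core ribosomal protein genes, mitochondrial ribosomal protein genes, OXPHOS genes and other protein-coding genes with a region. The run stands at 36.4% in core genes and at or below 13.8% in the other lists, while the ETS letters are as frequent in mitochondrial (37.2%) as in cytosolic (35.1%) ribosomal protein genes.

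Ribosomal protein genes have left many processed copies in the genome, so the copies and the uniqueness of the promoters were examined. Of 294 annotated ribosomal protein pseudogenes, 17 (5.78%) had a region within 1000 bp of their start and 2 had it over the start, against 81 of 86 for the genes. Away from the starts of other genes 15 of 271 (5.54%) had one. Levels near the pseudogenes ran from 0.44 to 5.36 log2 CPM with a median of 3.39. Within 500 bp the count was 4 and within 2000 bp it was 44. The share at arbitrary positions of the genome was not computed, so whether these regions belong to the pseudogenes was not tested.

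Of the words of 50 bases within 500 bp of a core gene's start, a median of 99.4% occurred once in the genome, and 34 of 77 genes had only such words. Shares below 90% were found in 8 genes. Lowest were Rps29 with 64.2% (level 6.08 log2 CPM), Rpl24 with 77.0% (4.73) and Rpl37a with 81.1% (4.96). Rps2, which has the longest pyrimidine run within the start window, had 86.2%. Mitochondrial ribosomal protein genes had a median of 100%, with 58 of 78 wholly unique. Reads from repeated words are dropped or placed by chance according to the mapping filter, and their part in these levels was not tested.

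Markers in the pooled list fitted a mesenchymal line in part. The mesenchymal markers Pdgfra, Pdgfrb, Prrx1 and Eng had regions of 6.14, 5.46, 5.17 and 3.63 log2 CPM, and Thy1 had none. Of 8 osteoblast and osteocyte markers 5 had a region, between 2.89 and 5.05, among them Runx2 (5.05), Dmp1 (4.41) and Fgf23 (2.89), while Sost, Phex and Mepe had none within 1000 bp of a start. Ptprc and Epcam, which mark blood and epithelial cells, had none. Pecam1 and Adipoq, also markers of other cell types, had regions of 1.89 and 2.96, and Adipoq lay slightly above Fgf23.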

How the data were processed

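ATAC-seq was made from 11 MPC2 libraries in 4 groups, mapped from the labels. According to the submitters' processing notes and the methods, reads were aligned to mm10 with Bowtie2, duplicates removed with Picard 2.17.8, low-quality and mitochondrial reads dropped, peaks called with MACS2 2.2.7.1 and merged over samples, blacklisted regions removed, transposase cuts counted per region, and counts scaled with edgeR 3.24.3. A shift of reads for Tn5 is not given in the sources used here. The deposited list holds 1 level per region, read from its values and the methods as the average log2 CPM over all libraries by the authors; it has no error, and counts and depth per library are unknown.

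Regions were joined to GENCODE vM21 transcript starts (window 1000 bp) with Python 3.11.15 (pandas 2.3.3, numpy 2.4.6); the region with the highest level stood for a gene. The main transcript was the protein-coding one ranked first by APPRIS, CCDS and support level. Sequences came from RefSeq GRCm38.p6, the assembly of mm10, and 66 of the 86 genes matched the RefSeq promoter table. Joining, motif search and word counting were tested on simulated data. Genes named in the text were those without a region, with several or shared regions, the 8 highest and 8 lowest, stalk, laminin receptor, Diamond-Blackfan and like-named genes, with Fau and Rack1; a few genes of this rule are not reported here by name; others are named as examples chosen after their values were seen, Rps25's sequence included. The genes and lists were chosen with earlier results of these data known. Counts, medians and quartiles were given beside those of all or other protein-coding genes, with no test, because the list has no value per library. Alternatives changed the distance, transcripts, symbols, region taken, comparison genes, start, window and run length.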

Additional observations from a re-analysis of the deposited data

How the results depend on the processing

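Of 52 alternative values, 44 were counted as unchanged, among them differences from other genes and a count of pseudogenes. A change of less than 0.1 log2 units passed for a level, 10% for a width and 1.5 times for a count. A share passed if it stayed within the 95% Wilson interval. The limit of 1.5 times is wide for 81 of 86 genes, a count that cannot rise above 86. The difference in median level between ribosomal protein and other protein-coding genes, 0.10 log2 units, turned to -0.26 when the others were CpG-rich promoters. It was 0.16 with the nearest region and 0.18 with each region once. Both passed as unchanged, since the limit is about as large as the difference. The share of genes with a pyrimidine run, 33.7%, was 20.9% for runs of at least 10 and 58.1% at any annotated start, a setting chosen after the data were seen. In the window of 500 bases before to 100 after the start, the shares of all 86 genes were 70.9% for Sp1 letters (other genes with a region 68.8%), 45.3% for CCAAT letters (54.3%) and 87.2% for hypoxia letters (76.7%), so the order turned for Sp1 letters. With RefSeq starts it turned for the E-box (7.58% against 9.85%). Pseudogenes with a region numbered 4 within 500 bp and 44 within 2000 bp, in place of 17. The count of ribosomal protein genes with a region stayed at 81 within 500 bp, within 2000 bp and with basic transcripts. No paired analysis was possible because single libraries have no values here; for the same reason no replicate could be left out, and the lack of counts sets the limit on precision.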
